A study of Mus musculus with 22 samples.

Results

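The nuclear genes for subunits of the mitochondrial respiratory chain and ATP synthase were followed in cultured mouse neural stem cells (NSCs) by RNA-Seq, which measures mRNA, and Ribo-Seq, which sequences the stretches of mRNA protected by ribosomes (footprints). Members were the genes of the Ribo-Seq tables whose symbol starts with Nduf (followed by a, b, c, s or v and a digit), Uqcr, Cox4 to Cox8 or Atp5, or is Sdha, Sdhb, Sdhc or Sdhd. The pattern found 87 of 23081 genes, of which 85 also had an RNA-Seq value, out of 20396 genes present in both kinds of file. Of the 87 members, 36 belonged to complex I, 4 to complex II, 8 to complex III, 21 to complex IV and 18 to complex V. By their symbols 4 of these match the pattern without being subunits: Cox4nb (a neighbour of Cox4i1), the pseudogene Atp5l-ps1, and the distantly named Atp5s and Atp5sl.

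The samples were 22 libraries of cortical NSCs from 129SvJae mouse embryos, 14 RNA-Seq and 8 Ribo-Seq, in 5 lines. All 3 tet-inducible lines carried the m2rtTA activator in the Rosa26 locus: KH2 had no Musashi cDNA, MSI1 had an inducible Msi1 cDNA in the Col1A1 locus, and MSI2 had Msi2 there. They were grown for 72 hours with doxycycline (Dox) or without it. The other pair carried floxed alleles of both Msi1 and Msi2: C1 lacked CreER and C4 carried it, and both were kept for 48 hours with 4-hydroxytamoxifen (4-OHT) or without. RNA-Seq covered all 5 lines at embryonic day E12.5, and at E13.5 untreated KH2 and untreated and Dox-treated MSI1. Ribo-Seq covered KH2, MSI1, C1 and C4 at E12.5. Musashi proteins are RNA-binding regulators of translation, and the study asked what their gain or loss does to NSC transcripts. No condition had biological replicates, so the lines or stages served as the repeats in every test below. Each p rests on the spread between them, with 1 to 4 residual degrees of freedom per gene, and borrows from the spread over all genes. In the test within MSI1 and the footprint tests of treatment, the spread used is almost wholly that of all genes. There a gene whose repeats differ can still pass. Untreated MSI1 at E13.5 had 2 technical replicates, which were summed and counted as 1 library.

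Library size ranged from 7889966 to 58435172 gene reads in RNA-Seq and from 657288 to 6381242 in Ribo-Seq, and members took 1.35% to 1.92% of RNA-Seq reads. In untreated KH2 Ribo-Seq the 10 leading genes took 77.6% of reads and members 0.338%; without the 10 leading genes of each library, members took 1.5% to 1.89% of footprints in all 8. Msi1 mRNA went from 19.7 to 108 RPKM (reads scaled to the length of the feature and the depth of the library) with Dox in MSI1 at E12.5 and from 50.9 to 208 at E13.5, and Msi2 mRNA from 23.2 to 128 in MSI2. With 4-OHT, Msi2 mRNA in C4 went from 39.5 to 4.54 RPKM, whereas Msi1 mRNA was 9.46 and 9.42. Msi1 footprints in C4 went from 2.82 to 1.11 RPKM (56 and 20 reads). The deleted part of Msi1 is not given in the sources used here, so its mRNA does not check the label. All 7 measured neural stem cell markers were above 1 RPKM and summed to between 2025 and 5643 RPKM per library, and no marker of endothelium, microglia, fibroblasts or erythroid cells reached 1 RPKM in any library. In these bulk samples, fewer cells of a type and less RNA per cell cannot be told apart.

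As background, the respiratory chain sits in the inner mitochondrial membrane. Complexes I and II pass electrons from NADH and succinate to ubiquinone, complex III passes them to cytochrome c, and complex IV, cytochrome c oxidase, passes them to oxygen. Complexes I, III and IV pump protons, and complex V, the ATP synthase, makes ATP as the protons return. Most subunits come from nuclear genes, are made on cytosolic ribosomes and are imported, while a core set is made inside the mitochondrion. Several complex IV subunits come in isoforms that differ by tissue or oxygen supply, and dividing neural progenitors are known to lean on glycolysis more than neurons do. Members left many processed pseudogenes in the mouse genome, so short reads from some of them match several places.

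The Atp5g genes show how close some members are to other places in the genome. Atp5g1, Atp5g2 and Atp5g3 each encode subunit c, the proton-carrying ring of ATP synthase, and their mature protein parts are near copies. The last 30 coding bases before the stop codon, in the last coding exon (build NCBIM37, gene strand minus in all), are given 5′ to 3′, with capitals where a base differs from Atp5g3.
Atp5g1, chr11:95934421-95934450: atggtCgcCttcCtCatcCtCttCgccatg
Atp5g2, chr15:102493448-102493477: atggtGgcCttTCtCatcCtCttCgccatg
Atp5g3, chr2:73746653-73746682: atggttgcgttcttgatcttgtttgccatg
Atp5g1 differed from Atp5g3 at 7 of these bases and its stretch occurred at 2 places in the genome, counting its own. Atp5g2 differed at 8 bases, and its stretch occurred at 4 places. The Atp5g3 stretch occurred once.

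Over whole coding sequences, each stretch of 31 bases (31-mer) of the 87 members was looked up in the genome. Of the members, 36 had no 31-mer at a second place, 48 had fewer than 5% and 16 had at least 50%. For 5 members every 31-mer was also found elsewhere: Atp5g1, Atp5g2, Atp5l (a small ATP synthase subunit of the membrane part), Cox7c (a small complex IV subunit) and Ndufb4 (an accessory complex I subunit). The same 5 were listed at 0 mRNA in all RNA-Seq libraries while having footprints, at a mean over the 4 untreated lines of 232 RPKM for Cox7c, 139 for Atp5l, 69.3 for Atp5g2, 43.2 for Ndufb4 and 38.9 for Atp5g1. Cox8c, a complex IV isoform, was listed at 0 in both assays, and none of its 31-mers occurred elsewhere. What part the shared sequence had in the listed 0 of the first 5 was not tested, and no mRNA level, TE or mRNA test is given for any of them. Nor can the footprints of those 5, here or below, be assigned to them alone.

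Ndufs5, an accessory complex I subunit with 81.1% of its 31-mers elsewhere, was listed at 0 mRNA in both C4 libraries only. It had 41.1 and 41.3 RPKM in C1 and 7.73 to 38.6 RPKM in the 9 tet-inducible libraries. Its C4 footprints were 31 RPKM without and 38.1 RPKM with 4-OHT, next to 153 and 74.5 RPKM in C1. The mRNA and footprint values of Ndufs5 in C4 thus stood apart, and what part the shared sequence had in this was not tested.

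Promoters were examined for the motifs of 3 factors known to act on respiratory genes, because members that are expressed together may share them. RefSeq promoter sequences (GRCm38.p6, 250 bases before to 50 after each start) matched 69 members by symbol. For each motif, the member with the highest mean footprint RPKM that holds it is shown as the 30 bases around it, on the gene's strand, with the motif in capitals.
Atp5g3, NRF1 motif, chr2:73911295-73911324: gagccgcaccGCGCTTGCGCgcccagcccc
Cox6b1, GABPA motif, chr7:30626125-30626154: ctcctctcgcagCTTCCGGccagtcggaat
Atp5j2, YY1 motif, chr5:145191500-145191529: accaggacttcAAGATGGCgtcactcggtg
All 3 genes lie on the minus strand. Searched on both strands, the NRF1 motif was in 17 member promoters (24.6%), next to 7.17% of the promoters of 17491 genes. The YY1 motif AAGATGGC was in 11 (15.9%, next to 3.57%) and the GABPA motif CCGGAAG in 16 (23.2%, next to 12.9%). The core of the hypoxia response element, ACGTG, was in 19 (27.5%, next to 23.2%). Overlaps between motifs were not removed, and a match describes the letters only.

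In the untreated libraries the members ranked among the most abundant transcripts. Their median mRNA was 70.5 RPKM in KH2, 64.1 in MSI1, 68.3 in MSI2, 120 in C1 and 117 in C4 at E12.5, while the median gene with more than 5 reads had 5.49, 5.0, 5.43, 9.53 and 9.55 RPKM. The median member stood between the 96.0 and 97.1 percentile of genes in mRNA and between 92.9 and 94.9 in footprints. In every RNA-Seq library 59 to 64 members were in the top 10% of genes, and 54 to 64 in every Ribo-Seq library. RPKM is comparable within a library but less so between kinds of library, because the gene counts held only part of the reads behind the RPKM, and that part differed. Gene reads were 14.9% to 15.8% of them in E12.5 tet-inducible RNA-Seq, 28.2% to 32.0% at E13.5 and 32.1% to 34.1% in floxed lines. In untreated C1 Ribo-Seq this share was 28.5%, next to 7.46% at the lowest of the floxed lines, and its footprint RPKM exceeded those of C4 for nearly all genes (median gene 7.12 next to 2.37). The standard deviations between lines below hold this scale difference, and the tests use scaled counts instead.

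In complex I, the entry point of NADH electrons, the highest footprint levels were those of the accessory subunits Ndufa7 (76.5 ± 24.5 RPKM, mean ± SD over the 4 untreated lines), Ndufa2 (72.9 ± 58.0) and Ndufa3 (63.2 ± 60.1). The lowest were Ndufs7, a core subunit that binds an iron-sulfur cluster (20.1 ± 9.94), the accessory Ndufb10 (19.9 ± 21.4) and Ndufv1, the core subunit that binds NADH (11.1 ± 9.93). Ndufa7 and Ndufv1 had deposited Ribo-Seq lengths of 51 and 184 bases, short of their RNA-Seq lengths of 182 and 995, so the order within complex I rests on few codons for both. In complex II the membrane subunit Sdhc (55.9 ± 29.3) was followed by the flavoprotein Sdha (40.9 ± 41.0), the iron-sulfur subunit Sdhb (36.7 ± 28.5) and the membrane subunit Sdhd (29.2 ± 16.6). Neighbours in that order differed by less than the SD of either.

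In complex III the hinge subunit Uqcrh had the highest footprint level (158 ± 177 RPKM), then Uqcr11 (92.4 ± 43.5) and Uqcrb (82.5 ± 98.5), and the core proteins Uqcrc2 (40.4) and Uqcrc1 (38.4) and the Rieske iron-sulfur protein Uqcrfs1 (32.9 ± 36.0) the lowest. Complex IV held the widest range. Cox7c (232 ± 143 RPKM), Cox6b1 (217 ± 213) and Cox6c (190 ± 131), small subunits found in most tissues, were highest, while the isoforms Cox4i2 and Cox6a2 averaged 0.0171 and 0.0303 RPKM and Cox7b2 and Cox8c had no footprints. In complex V the catalytic beta subunit Atp5b (191 ± 154), the alpha subunit Atp5a1 (152 ± 136) and Atp5g3 (152 ± 149) led. The lowest 3 of complex V, at 1.36 RPKM or less, were Atp5sl, Atp5s and Atp5l-ps1, none of them a subunit. Atp5b also had the highest mRNA of all members (578 ± 125 RPKM over 5 lines), followed by Atp5g3 (403), Atp5a1 (399), Cox4i1 (397), the regulatory subunit of complex IV, and Ndufa4 (362), once assigned to complex I and now counted with complex IV.

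**Figure D1:**
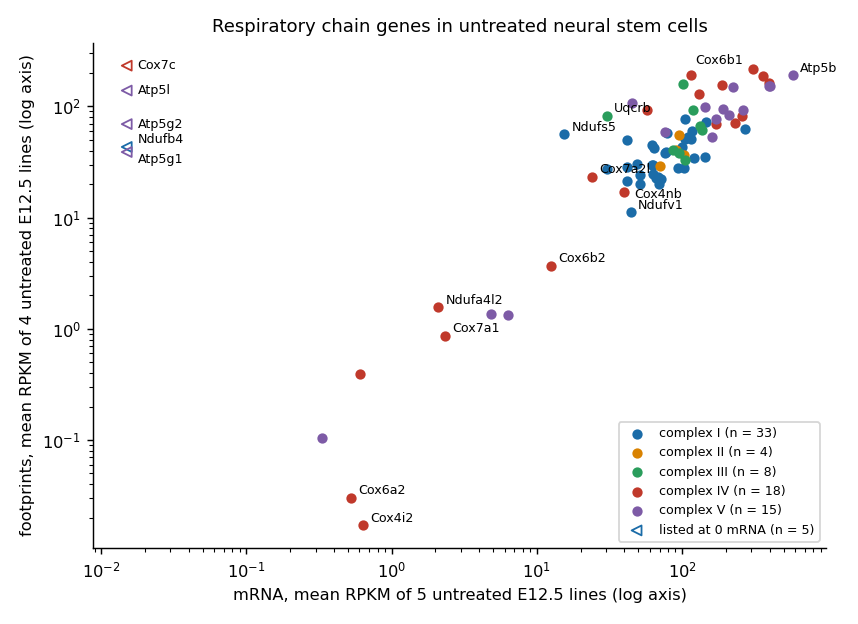
Mean footprint RPKM over 4 untreated E12.5 lines against mean mRNA RPKM over 5, both on log axes, 1 point per member, coloured by complex. Open triangles at the left edge are the 5 members listed at 0 mRNA, and the tissue isoforms Cox4i2 and Cox6a2 lie at the lower end.

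Translational efficiency (TE) is the footprint RPKM divided by the mRNA RPKM, given here as a log2 value relative to the median gene of the same library, with more than 5 reads required in both assays. The median TE of members was 0.02 in untreated KH2 (72 members), 0.27 in MSI1 (73), 0.46 in C1 (72) and 0.39 in C4 (71). Among members with under 5% of 31-mers elsewhere the medians were -0.11, 0.01, 0.18 and 0.21. Over lines, the median TE was 0.03 for the 39 members with under 5% shared, 0.47 for the 22 with 5% to under 50% and 1.63 for the 9 with at least 50%. Across the 70 members, TE and the shared percentage had a Pearson correlation of 0.74 and a Spearman correlation of 0.65, a description across genes that share libraries. Of the 10 members with the highest TE, 7 had at least 50% shared, of 9 such members in all. What part read assignment had in these TE values was not tested.

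The highest TE values were those of Uqcrb (2.59 ± 0.51, mean ± SD of 4 lines, 89.5% shared), Atp5h, the d subunit of the ATP synthase stalk (2.39 ± 0.57, 83.6%), Cox6c (2.35 ± 0.33, 66.2%), Uqcrh (2.13 ± 1.68) and Cox5b, a zinc-binding complex IV subunit (2.07 ± 0.18, 82.8%). Uqcrh had an RNA-Seq length of 14 bases and a Ribo-Seq length of 108, and its mRNA values rest on 81 to 405 reads per library. The lowest TE values were Atp5s (-0.96 ± 0.56), Ndufc2 (-0.69 ± 0.36) and Ndufv1 (-0.56 ± 0.16), all with under 5% shared.

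**Figure D2:**
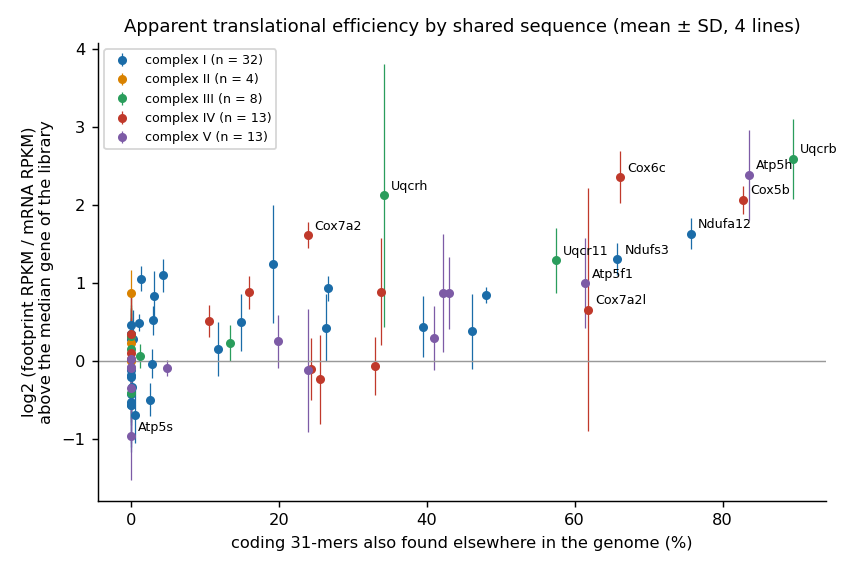
Mean log2 TE relative to the median gene (± SD over 4 untreated lines) against the percentage of a member's coding 31-mers found elsewhere in the genome, 1 point per member. Members with at least 50% shared have a median of 1.63, those with under 5% a median of 0.03.

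The question put to the tet-inducible lines was whether Dox moved these genes on average over the lines. Across KH2, MSI1 and MSI2 at E12.5, fitted with edgeR's quasi-likelihood test with the line as a block, no member of 76 tested passed an adjusted p (Benjamini-Hochberg over all genes) of 0.05 for mRNA. In the same test 0.451% of the 11969 genes passed. Without adjustment 8 members had p under 0.05, and DESeq2 called 0. The fit gives the average change over the lines, including KH2. A change confined to MSI1 or to MSI2 adds to the spread it tests against. It therefore cannot decide whether Msi1 or Msi2 moved members. Without KH2, 3 members passed (Cox4nb, Cox7a2 and Cox6b2), and without MSI1, 4 passed (Ndufa4, Ndufc1, Atp5j2 and Uqcrh). The median log2 difference was 0.01, with 40 members higher and 36 lower. It was 0.08 without MSI1 (48 higher, 28 lower) and -0.06 without MSI2 (18 higher, 57 lower). The members nearest the threshold were Cox7a2, the widely expressed isoform of its complex IV subunit (-0.32, SE 0.08, adjusted p = 0.0993), and Ndufa4 (0.36, SE 0.09, adjusted p = 0.119). Cox7a2 mRNA was 124, 103 and 121 RPKM without Dox in KH2, MSI1 and MSI2 and 99, 83.7 and 94.8 RPKM with it. At E12.5 it was lower in every line, including KH2, which has no inducible Musashi cDNA but expresses its own Msi1 and Msi2. In MSI1 at E13.5, outside this fit, Cox7a2 was not lower, at 141 RPKM without and 153 with Dox. The median log2 ratio of RPKM over genes with at least 50 reads was 0.09 in that pair.

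Line by line the members moved little, and differently. Their median log2 mRNA change with Dox was -0.00 in KH2 (36 of 72 higher), -0.09 in MSI1 at E12.5 (17 of 72 higher), 0.12 in MSI2 (53 of 72) and -0.12 in MSI1 at E13.5 (24 of 73). All of these compare 1 library with 1 library, have no replicate check and count members with at least 50 reads in each. The median gene lay between -0.02 and 0.02 in each of the 10 single-library comparisons of mRNA and footprints. In MSI2 the largest rises in value were Ndufc1, a small complex I subunit (0.82, counting interval 0.70 to 0.95, from 70.7 to 128 RPKM), Uqcrb (0.75, from 16.9 to 29.0 RPKM) and Ndufa4 (0.68, from 176 to 289 RPKM). The largest drop in value there was Uqcrh (-1.22, from 131 to 57.2 RPKM, 163 and 85 reads), then Atp5j2, the f subunit of ATP synthase (-0.52). In MSI1 at E12.5 Cox4nb (0.39) and Atp5sl (-0.41) lay furthest out beside Cox6b2. In MSI1 at E13.5 the furthest down were Ndufv2, a core complex I flavoprotein partner (-0.61), and Atp5g3 (-0.44). In KH2 the furthest up and down were Ndufc1 (0.31, from 75.9 to 91.4 RPKM) and Uqcrh (-0.59). Intervals are 95% and cover counting error only.

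Within MSI1, with E12.5 and E13.5 as repeats, 1 member of 76 changed with Dox in mRNA, next to 3.6% of 11938 genes. Cox6b2 (ENSMUSG00000051811, NCBIM37 chr7:4703396-4704696, minus strand), the testis-type partner of Cox6b1 on the intermembrane side of complex IV, rose (log2 0.83, SE 0.18, adjusted p = 0.000538, edgeR). It went from 19.5 to 26 RPKM at E12.5 and from 29.0 to 69.6 RPKM at E13.5. DESeq2 called 0 members, and so did the fit without the stage block. The other lines, read side by side, gave Cox6b2 values of 16.5 and 17.6 RPKM in KH2 without and with Dox, 17.9 and 28.6 in MSI2, 4.30 and 3.79 in C1 without and with 4-OHT, and 3.92 and 9.18 in C4. As log2 changes with counting intervals these were 0.13 (-0.12 to 0.37) in KH2, 0.64 (0.41 to 0.87) in MSI2, -0.18 (-0.58 to 0.23) in C1 and 1.16 (0.79 to 1.52) in C4. In MSI1 they were 0.42 (0.18 to 0.66) at E12.5, an interval that overlaps that of KH2, and 1.17 (1.06 to 1.29) at E13.5. Each of these is 1 pair of libraries, and the differences between lines were not tested. Its footprints, 7 to 49 reads per library, went from 6.53 to 14.8 RPKM in MSI1 and were 4.15 and 4.54 RPKM in KH2. Within MSI1 the median member difference was -0.11, with 17 higher and 59 lower, next to a median of -0.01 over all genes. None of the 59 passed.

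For footprints, KH2 and MSI1 gave 1 member called of 78 with Dox, next to 0.542% of 8491 genes. Atp5g1 (log2 1.12, SE 0.25, adjusted p = 0.00961, edgeR) went from 13.9 to 67.7 RPKM in KH2 (62 and 321 reads) and was 15.4 and 15.1 RPKM in MSI1 (178 and 52 reads). The call rests on KH2, with a log2 change of 2.16 (1.77 to 2.55), and 0 members were called by DESeq2, without the line block, or once the 10 leading genes of each library were left out. Atp5g2 footprints were 35 and 31.6 RPKM in the same KH2 libraries and Atp5g3 footprints 67.9 and 62.7. All of the coding 31-mers of Atp5g1 occur elsewhere, so its footprints cannot be assigned to it alone. The median over members was -0.01 (37 higher, 41 lower). This fit, like the TE fit below, averages KH2 and MSI1, so any effect of Msi1 is not separated from that of Dox.

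For TE with Dox 0 of 71 members passed, next to 0.0133% of 7532 genes. Without adjustment 2 had p under 0.05, and DESeq2 called 0. The fitted median was 0.03 (41 higher, 30 lower), and line by line it was 0.04 in KH2 and 0.08 in MSI1, where that of all genes was 0.01 in both. In MSI1 the largest rises of footprints in value were Uqcrh (0.85, from 61.0 to 108 RPKM), Ndufa5, a complex I subunit of the peripheral arm (0.82, 98 and 51 reads), and Ndufa4 (0.39, from 88.2 to 114 RPKM). Footprints of Cox6a1, the widely expressed isoform of its subunit, were lower (-0.42, from 56.1 to 41.2 RPKM).

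**Figure D3:**
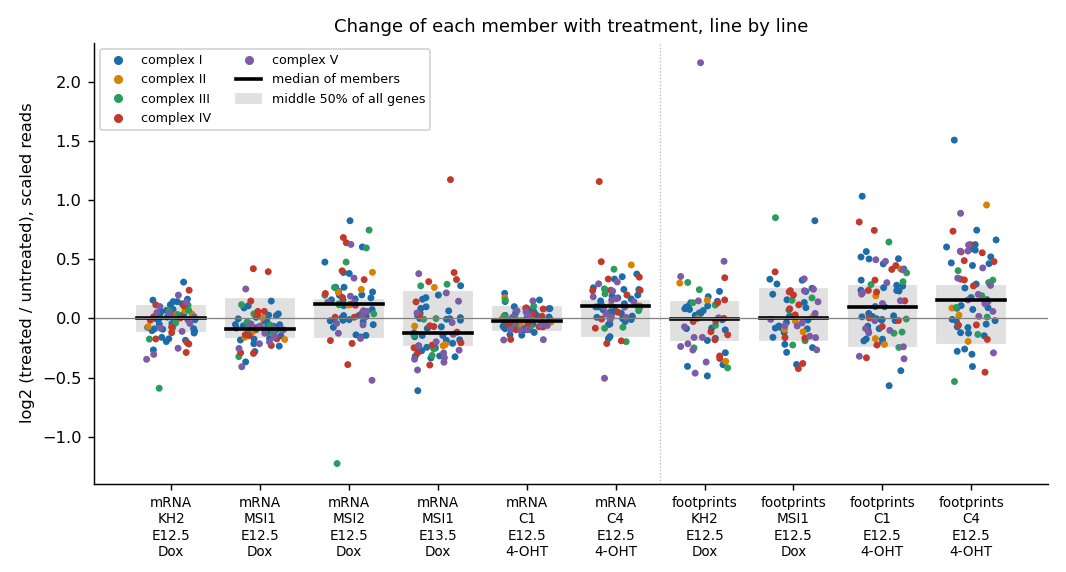
Log2 ratio of scaled reads, treated over untreated library, for each member with at least 50 reads in both, in 6 RNA-Seq and 4 Ribo-Seq comparisons. Black bars are member medians and grey boxes hold the middle 50% of all genes. Member medians stay between -0.12 and 0.16, and the points furthest out include Atp5g1 at 2.16 in KH2 footprints, Ndufa3 at 1.51 in C4 footprints, Cox6b2 at 1.17 and 1.16, and Uqcrh at -1.22 in MSI2.

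The 4-OHT comparison took C1, which cannot recombine its floxed alleles, and C4, which can, as repeats of the same agent. It gives the average change over both lines. Any effect of Musashi loss in C4 enters that average and is not separated from that of 4-OHT. For mRNA 0 of 72 members passed, next to 5.5% of 11626 genes. Without adjustment 13 members had p under 0.05, and DESeq2 called 0. The median was 0.05 (47 higher, 25 lower). The member nearest the threshold was Sdhd, a membrane anchor of complex II (0.31, SE 0.08, adjusted p = 0.0594, edgeR), at 91.6 and 103 RPKM in C1 without and with 4-OHT and 93.4 and 134 RPKM in C4. Per line the median log2 change was -0.02 in C1 (29 of 72 higher) and 0.10 in C4 (55 of 71 higher). In C4 the largest values after Cox6b2 were Cox7b (0.48), a small complex IV subunit, and Sdhd (0.45), and the lowest was Atp5s (-0.50). In C1 no member lay beyond 0.21, that of Ndufc1.

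Footprints with 4-OHT called 3 of 78 members, next to 1.68% of 9705 genes, and all 3 rose. Ndufa3 (log2 1.00, SE 0.28, adjusted p = 0.0466) went from 153 to 82.4 RPKM in C1 and from 30.2 to 77.2 in C4. Cox7c (0.65, SE 0.18, adjusted p = 0.0347) went from 441 to 283 RPKM in C1 and from 198 to 251 in C4. Cox6a1 (0.61, SE 0.17, adjusted p = 0.0385) went from 124 to 75.5 RPKM in C1 and from 55.3 to 69.5 in C4. The lower RPKM in treated C1 belongs to the library: over all genes with at least 50 reads the median log2 ratio of deposited RPKM was -1.45 in C1, and on counts scaled by TMM the C1 changes of Ndufa3, Cox7c and Cox6a1 were 0.56, 0.81 and 0.74. The C4 changes were 1.51, 0.49 and 0.48. None of the 3 passed with median-of-ratios scaling, with DESeq2, without the line block or without the 10 leading genes, and without a filter on low counts Ndufa3 alone passed. In the DESeq2 fit 66 of the 78 members had an adjusted p.

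The median footprint difference with 4-OHT was 0.13 (55 higher, 23 lower, 16 with unadjusted p under 0.05), next to -0.01 over all genes. It was 0.01 for the 40 members with under 5% of 31-mers elsewhere and 0.30 for the other 38, and this split was not tested. By line the medians were 0.10 in C1 and 0.16 in C4. The C4 values furthest up after Ndufa3 were Sdhd (0.96, 182 and 289 reads) and Atp5k, the e subunit of ATP synthase (0.89), and the furthest down was Uqcrq (-0.53). In C1 Ndufa12, an accessory complex I subunit, stood at 1.03 and Ndufa8, another, at -0.57. For TE with 4-OHT 0 of 71 members passed, next to 0.0% of 8558 genes. Without adjustment 6 members and 750 genes had p under 0.05, and DESeq2 called 0 members and 14 genes. The fitted median was 0.10 (48 higher, 23 lower), next to -0.00 over all genes. Line by line, over members with at least 50 footprint reads, the median change of TE was 0.03 in C1, where that of all genes was -0.05, and 0.02 in C4, where it was -0.01.

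The E13.5 libraries of untreated KH2 and MSI1 were compared with those of E12.5, with the line as a block, and the largest differences lay in a few isoforms. Of 76 members 14 rose and 18 fell in mRNA, next to 25.6% and 25.2% of 11893 genes, with a median of -0.09. By complex the rises and falls were 6 and 5 of 33 in complex I, 1 and 1 of 4 in complex II, 2 and 1 of 8 in complex III, 5 and 7 of 17 in complex IV and 0 and 4 of 14 in complex V. Untreated KH2 and MSI1 of E12.5 also enter the Dox and the floxed comparisons, so the comparisons share samples. Embryonic day, culture and library batch cannot be told apart here.

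The falls were led by Cox4i2 (NCBIM37 chr2:152579909-152590773), the lung-type and oxygen-sensitive partner of Cox4i1, and by Ndufa4l2 (chr10:126951995-126954208), the hypoxia-induced relative of Ndufa4. Cox4i2 was between 0.577 and 1.25 RPKM in the 6 tet-inducible libraries of E12.5 (11 to 50 reads) and between 0.0258 and 0.0497 in the 3 of E13.5 (1 to 3 reads). Ndufa4l2 was 2.35 to 3.84 RPKM at E12.5 and 0.172 to 1.10 at E13.5. The stages do not overlap for either gene. In the untreated pairs Cox4i2 had 3 reads at E13.5 and 74 at E12.5, a scaled ratio of 1.53% (95% exact interval 0.309% to 4.66%), and Ndufa4l2 17 and 78 reads, 8.25% (4.57% to 14.1%). The fitted log2 differences were -5.87 (SE 0.65, adjusted p = 4.57e-05) and -3.50 (SE 0.51, adjusted p = 0.0003), and for Cox4i2 that size depends on the prior count. Atp5s (-1.08), Uqcrh (-1.01) and Sdhd (-0.73) followed.

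The rises were led by Cox6a2, the heart and muscle partner of Cox6a1, at 0.125 to 3.41 RPKM at E12.5 and 7.18 to 13.6 at E13.5. In the untreated pairs it had 516 reads at E13.5 and 13 at E12.5, a scaled ratio of 15 (8.71 to 28.4), and a fitted log2 of 3.95 (SE 0.44, adjusted p = 4.74e-05, edgeR). Ndufa4 itself rose (0.76, SE 0.11), from 185 and 184 RPKM in KH2 and MSI1 to 705 and 535, while its relative fell. The fit uses scaled counts, and the median gene in these libraries went from 5.49 and 5.0 RPKM to 11.1 and 8.74. Ndufs5 (0.77), Uqcrq (0.76), a small complex III subunit, and Uqcrc1 (0.54) also rose. Among the partners, Cox4i1 was not called, and Cox6a1 (-0.33) and Cox6b1 (-0.40) fell.

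The floxed and tet-inducible lines were compared untreated at E12.5, as a question of line rather than of Musashi. Kind of line, experiment and library processing cannot be told apart in it, and 66.3% of 12211 genes passed the mRNA test. In mRNA 3 of 75 members were higher and 42 lower in floxed lines, next to 33.0% and 33.3% of all genes. Of the 75 members 56 had a lower value, with a median of -0.31 next to 0.00 over all genes. Complex IV (10 of 16 lower, 3 higher, median -0.56) and complex V (10 of 14 lower, median -0.43) stood lowest, then complex I (17 of 33, -0.26), complex II (2 of 4, -0.23) and complex III (3 of 8, -0.06). Without the non-subunits and the alternative isoforms, 37 of 68 were lower and 2 higher, with a median of -0.26. The count of 45 was 28 without C1 and 26 without C4, and 38 to 42 without 1 of the tet-inducible lines. In all 5 of these fits 23 members were called.

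The largest of these differences were again isoforms. Ndufa4l2 had 2 reads in the 2 floxed and 109 in the 3 tet-inducible untreated libraries (scaled ratio 0.845%, exact interval 0.101% to 3.13%), and Cox4i2 6 and 114 reads (2.42%, 0.871% to 5.44%). Cox6b2 was 4.30 and 3.92 RPKM in untreated C1 and C4 and 16.5, 19.5 and 17.9 in KH2, MSI1 and MSI2 (log2 -3.21, SE 0.18, adjusted p = 3.43e-05, edgeR). Uqcrh (-2.19, SE 0.29) and Cox7a1, the heart and muscle partner of Cox7a2 (-1.55, SE 0.42, adjusted p = 0.016), followed. Higher in the floxed lines were Ndufa4 (0.72, SE 0.08, adjusted p = 0.000354), at 662 and 602 RPKM next to 176 to 185, Cox4nb (0.53) and Cox5b (0.37). The RPKM scale differs between the kinds of line, with a median gene of 9.53 and 9.55 RPKM next to 5.0 to 5.49. The fitted values use scaled counts. The level of Ndufa4l2 relative to Ndufa4 within a library, free of scaling, was 1.16% to 2.07% in the 6 tet-inducible libraries of E12.5, 0.0316% to 0.156% at E13.5 and at most 0.0232% in the floxed lines.

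**Figure D4:**
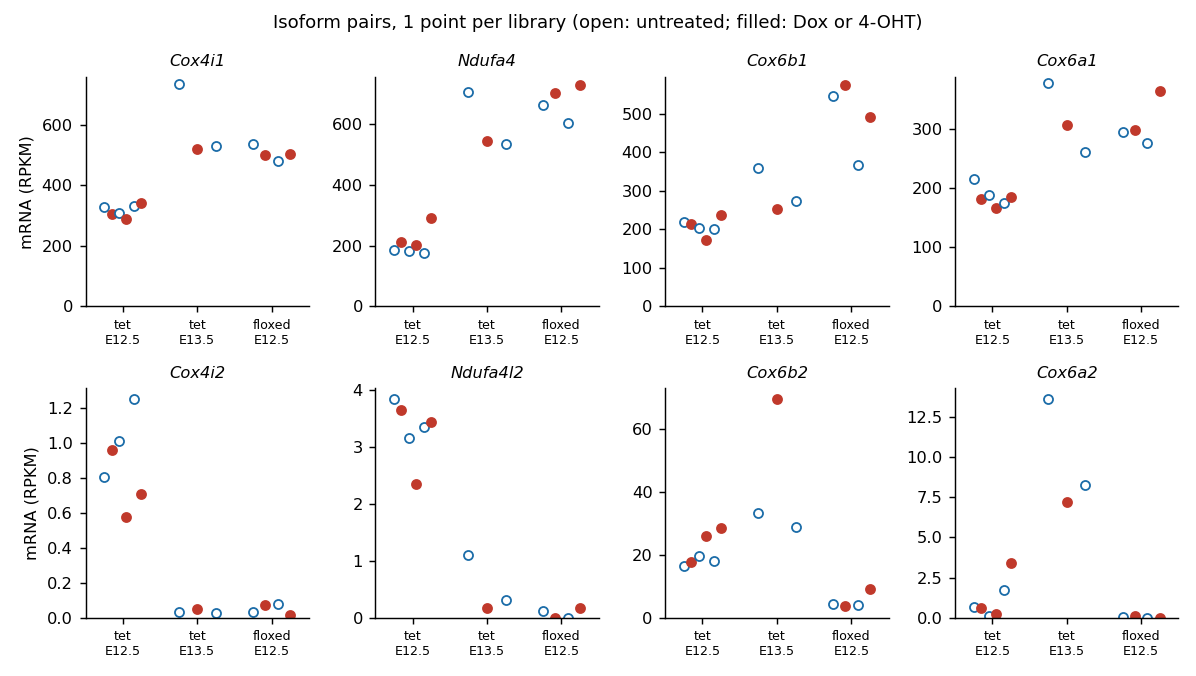
mRNA RPKM of 4 complex IV subunits (top) and of an isoform of each (bottom), 1 point per library, in 6 tet-inducible libraries of E12.5, 3 of E13.5 and 4 floxed libraries. Cox4i2 is below 0.1 RPKM and Ndufa4l2 at most 1.10 RPKM outside the E12.5 tet-inducible libraries, Cox6a2 is above 7 RPKM at E13.5 only, and Cox6b2 is below 10 RPKM in all floxed libraries.

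Genes known to respond to low oxygen were looked at beside Cox4i2 and Ndufa4l2, a list of 9 chosen after these values were seen. Their summed mRNA was 388 to 499 RPKM in the E12.5 tet-inducible libraries, 56.8 to 90.8 at E13.5 and 81.4 to 111 in the floxed lines. Vegfa, the vascular growth factor, was 197 to 255, 23.1 to 54.2 and 20.8 to 39.1 RPKM. Pericytes also carry Cox4i2 and Ndufa4l2, and of 7 pericyte markers, chosen likewise, only Cspg4 and Rgs5 exceeded 1 RPKM. The list summed to 5.67 to 10.9, 15.5 to 24.1 and 7.60 to 10.4 RPKM, most of it Cspg4 (5.62 to 10.8, 15.3 to 23.7 and 7.11 to 9.29). Rgs5 exceeded 1 RPKM in floxed lines only, and the other markers reached at most 0.259 RPKM. The RPKM scale itself differed between the kinds, with a median gene of 4.96 to 5.74, 8.74 to 11.1 and 9.53 to 9.91 RPKM, and the neural stem list summed to 2025 to 2615, 4931 to 5001 and 5132 to 5643. The astrocyte list went from 64.8 to 134 RPKM to 191 to 259 and 280 to 391.96. The neuron list summed to 5.06 to 8.40, 15.9 to 18.5 and 19.2 to 23.8 RPKM, and the oligodendrocyte lineage list to 159 to 242, 447 to 714 and 357 to 554. On scaled counts these genes were mixed between the untreated floxed and tet-inducible E12.5 lines. Among those higher at adjusted p under 0.05 (edgeR) were Gfap (log2 6.40), S100b (2.78), Snap25 (2.56) and Nes (1.44). Sox2 (-1.10) and Tubb3 (-0.55) were lower, and Olig1, most of the oligodendrocyte sum, stood at 0.02. What part the genes of these lists had in the isoform values was not tested.

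The footprints of the floxed lines did not repeat the lower mRNA. Of 77 members 6 were higher and 8 lower, next to 19.8% and 20.1% of 9293 genes (39.9% in both directions), with a median of 0.01 next to 0.04 over all genes. Cox7a2l (NCBIM37 chr17:83901259-83913673, minus strand, 61.9% of 31-mers elsewhere), which takes part in joining complexes III and IV into supercomplexes, had 3.30, 1.81, 4.24 and 3.20 RPKM in the tet-inducible libraries (7 to 40 reads) and 68.6, 29.2, 16.6 and 24.9 RPKM in the floxed ones (138 to 515 reads), with no overlap (log2 1.92, SE 0.31, adjusted p = 0.0005, edgeR). Its mRNA was 17.0 to 21.9 RPKM and 27.3 to 29.7 RPKM at E12.5, lower in floxed lines once scaled (-0.61). Ndufb5, an accessory complex I subunit with no shared 31-mer, was 13.0 and 14.2 RPKM in untreated KH2 and MSI1 and 150 and 26.7 in C1 and C4 (1.03, SE 0.25). Also higher were Atp5g1 (0.72), Uqcrb (0.69), Atp5h (0.68) and Uqcrh (0.59). The lowest were Ndufa7 (-1.52), Ndufs7 (-1.20), Uqcr11 (-1.05), Sdhd (-0.99) and Ndufb3 (-0.82). The 14 calls were 6 without KH2, 4 without MSI1, 15 without C1 and 22 without C4, and only Cox7a2l, Ndufa7, Ndufs7 and Uqcr11 were called in all 4.

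TE was higher in the floxed lines for 10 of 70 members and lower for 1, next to 4.75% and 5.26% of 8251 genes (10% in both directions). The median was 0.27, with 52 higher and 18 lower, next to -0.01 over all genes. By complex the medians were 0.62 for complex V (5 of 13 higher), 0.55 for complex III, 0.22 for complex IV, 0.20 for complex I and -0.14 for complex II. Uqcrh (2.82, SE 0.36, adjusted p = 0.00168), Cox7a2l (2.63, SE 0.27, adjusted p = 0.000369) and Ndufb5 (1.70, SE 0.25) led, then Atp5c1, the gamma subunit that turns in the ATP synthase head (1.26), and Cox7b (1.15). The mRNA of Uqcrh rests on 81 to 205 reads per library in the E12.5 tet-inducible and 93 to 176 in the floxed lines. Cox7a2l has 61.9% of its 31-mers elsewhere. Ndufa7 was lower (-1.30, SE 0.31, adjusted p = 0.0294, edgeR). Among the 38 members with under 5% of 31-mers elsewhere, 4 were higher and 0 lower, with a median of 0.30. Without KH2, and likewise without MSI1, Cox7a2l was the 1 member called, while 8 were called without C1 and 15 without C4.

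**Figure D5:**
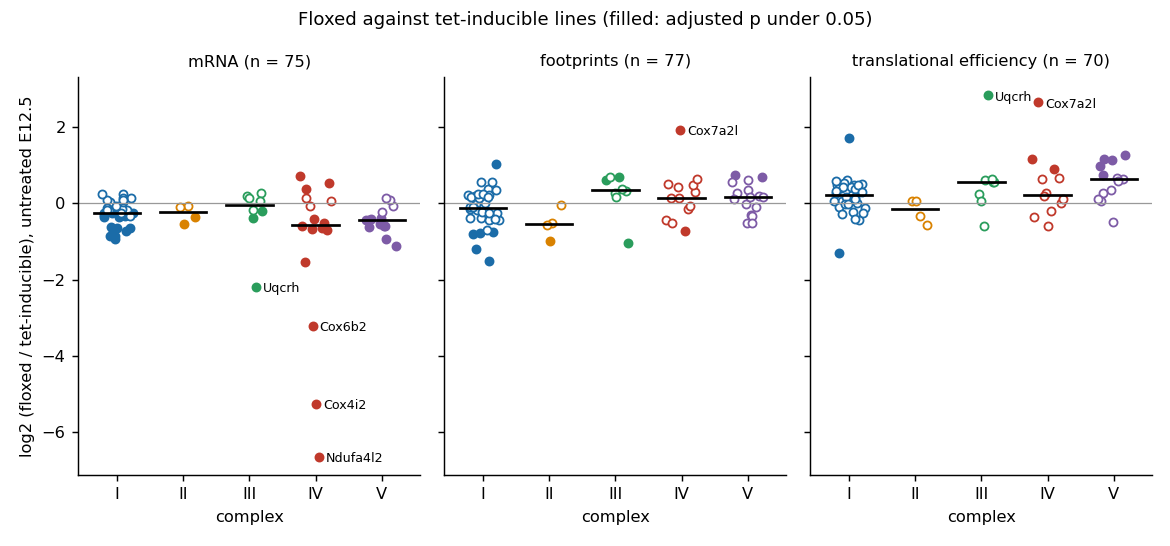
Log2 difference of each member between untreated floxed and tet-inducible E12.5 lines in mRNA (75 members), footprints (77) and TE (70), by complex, with filled points for adjusted p under 0.05 and bars for the median of the complex. The mRNA medians run from -0.56 to -0.06, and the TE medians from -0.14 to 0.62.

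Set against the promoter motifs, the median mRNA difference of the floxed from the tet-inducible lines was -0.25 for members with the NRF1 motif and -0.34 for those without. It was -0.35 with and -0.29 without GABPA, -0.23 and -0.33 for YY1, and -0.35 and -0.27 for ACGTG. Cox4i2 and Ndufa4l2 were not among the members matched to a promoter. The median TE difference was 0.47 with and 0.26 without the NRF1 motif, 0.17 and 0.38 for GABPA, 0.40 and 0.24 for YY1 and 0.34 and 0.26 for ACGTG. In the Dox (KH2, MSI1 and MSI2) and 4-OHT mRNA comparisons, all such medians lay between -0.03 and 0.10.

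Beside the members stood the other genes of the pathway, lists drawn up from known function. All 13 subunits encoded in mitochondrial DNA were measured in footprints. With 4-OHT all 13 rose (median 1.20), next to 3 of 78 members and 1.68% of all genes called. By line their median was 1.84 in C1 (13 of 13 higher) and 0.45 in C4 (12 of 13), and their share of footprint reads went from 1.549% to 4.78% and from 4.84% to 6.29%. With Dox 3 of 13 rose in footprints, next to 0.542% of all genes called. They were mt-Cytb (1.52), mt-Nd4l (1.65) and mt-Nd3 (0.90), and the medians over the 13 were 1.25 in KH2 and 0.84 in MSI1. In mRNA 4 of the 7 tested rose with Dox (mt-Nd2 0.95, mt-Cytb 0.90, mt-Nd4 0.61, mt-Nd6 0.38), next to 0.451% of all genes called. The medians over the 7 at E12.5 were 0.57 in KH2, 0.32 in MSI1 and 0.32 in MSI2. In MSI1 at E13.5 the median was -0.02, with 3 of 7 higher. In mRNA 0 of 7 passed with 4-OHT (0 with unadjusted p under 0.05), next to 5.5% of all genes. RNA-Seq here selected poly(A)+ RNA. For TE 0 of 7 passed with either agent, with 0 at unadjusted p under 0.05 for Dox and 5 for 4-OHT (median 1.18). The difference between the nuclear and the mitochondrial subunits was not tested.

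The remaining lists are given beside the share of all genes called in the same test. Of 33 assembly factors, 17 carriers and subunits outside the symbol pattern, and 18 genes of the citric acid cycle and pyruvate dehydrogenase, 0 passed in mRNA with Dox (0.451% of all genes), where 3, 2 and 4 had unadjusted p under 0.05. With 4-OHT (5.5% of all genes) 0 of 31, 17 and 18 passed, where 1, 1 and 3 did. DESeq2 was not summarised over these lists. Of 16 regulators of mitochondrial biogenesis 10 were higher and 1 lower in the floxed lines, next to 33.0% and 33.3% of all genes. Among the 10 higher were Pprc1 (3.93), Myc (3.27) and Ppargc1b (2.57), and the 1 lower was Ppargc1a (-2.18). The median over the 16 was 0.50. Of 16 regulators tested in mRNA with 4-OHT 1 passed, next to 5.5% of all genes: Ppargc1a, which rose (0.89, adjusted p = 0.0157, edgeR). Between the kinds of line, assembly factors were higher in 13 and lower in 7 of 33, citric acid cycle genes in 5 and 7 of 18, and carriers in 4 and 7 of 17, several of them near those shares. Between stages, where 25.6% of all genes rose and 25.2% fell, 9 rose and 5 fell of the 33 assembly factors, 6 and 1 of the 18 citric acid cycle genes, 9 and 1 of the 17 carriers, 7 and 1 of the 16 regulators, and 0 and 5 of the 7 mitochondrially encoded subunits.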

How the data were processed

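RNA-Seq (poly(A)+, paired-end) and Ribo-Seq (RNase I footprints of monosomes, single-end) were made in 22 samples of 5 NSC lines. The authors deposited for each library raw read counts per Ensembl gene and RPKM values, with the length used. The submitters' processing notes name Bowtie and TopHat and the mm9 build, without versions. Footprints were counted over the coding exons listed and RNA-Seq reads per gene, over lengths that differ for some genes. How reads matching several places were counted is not given in the sources used here. No per-sample column went unused (0 columns).

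Members were matched by Ensembl ID. Members, gene lists and tests were chosen with earlier results of these data known, and the named members follow a rule: the 3 highest and lowest of each complex by footprints, up to 5 called each way per test, up to 3 each way per single-library comparison among those with at least 50 reads and an interval without 0, isoforms, and members listed at 0 mRNA. Members nearest a threshold and Ndufs5 were added after their values were seen. Tests used edgeR 4.0.16 (R 4.3.3, TMM, quasi-likelihood, Benjamini-Hochberg over all genes, threshold 0.05, CPM of at least 1 in RNA-Seq or 5 in Ribo-Seq in at least 2 libraries). Lines were a block in the treatment and stage tests (E12.5 and E13.5 the block within MSI1), and TE was the interaction of assay and group. DESeq2 1.42.0, other scalings, filters and left-out lines were alternatives. Members to which DESeq2 gave no adjusted p count as not called, and 66 of 76 had one for mRNA with Dox. Counting intervals are 95%. Fits were also run on simulated counts with large changes and less spread than the footprints here, which does not test them for small changes. NCBIM37 sequence was scanned for 31-mers, and promoters came from RefSeq (GRCm38.p6). Depths are given with the results. The values of 1 member are not reported here, though it is kept in the counts and medians.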

Additional observations from a re-analysis of the deposited data

Results flagged for a closer look

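The following members moved in opposite directions in lines given the same agent. Each value compares 1 library with 1, and the difference between the lines was not tested. With Dox, Uqcrb mRNA had a log2 change of -0.32 in MSI1 and 0.75 in MSI2 at E12.5, and the median over members was -0.0873 in MSI1 and 0.12 in MSI2. With 4-OHT, footprints of Uqcrq were 0.38 in C1 and -0.53 in C4, and those of Atp5l -0.32 and 0.34.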

How the results depend on the processing

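Counts of called members and their medians stayed close to the values above for 130 pairs of result and alternative and moved for 36, and no result changed sign past its threshold. Without a filter on low counts, 4 members passed for mRNA with Dox, 6 for mRNA with 4-OHT and 1 for footprints with 4-OHT, and medians were -0.023 for footprints with Dox, 0.0669 for TE with 4-OHT and 0.0509 for footprints between kinds of line. With DESeq2, 0 passed for Dox within MSI1, footprints with Dox and footprints with 4-OHT. Median-of-ratios scaling gave 0 for footprints with 4-OHT, and leaving out the 10 leading footprint genes gave 0 for footprints with either agent and a Dox median of 0.00043. Without the block for line or stage, 0 passed for Dox within MSI1, footprints with Dox and footprints with 4-OHT. Leaving out 1 line gave 0 to 4 members for mRNA with Dox (3 without KH2, 4 without MSI1, median -0.06 to 0.08), 26 to 42 for mRNA between kinds of line (median -0.36 to -0.25), 4 to 22 for footprints (0.0149 to 0.119) and 1 to 15 for TE (0.20 to 0.33). These left-out fits for footprints and TE, and the split by shared sequence, were chosen after seeing the data. Among members with under 5% shared, median TE was 0.00647 in untreated and 0.0696 in treated MSI1, and 0.18 and 0.22 in C1. Deposited RPKM as they stand gave footprint medians of 0.12 in KH2, -1.35 in C1 and 0.0089 in C4. Over all members called in a test, 627 values under an alternative kept their call and 151 lost it. Dox-treated MSI1 had the fewest footprint reads (657288). Leaving out 1 of the 2 lines in a treatment or stage test leaves no spread to test against.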
